A study of Microtus ochrogaster with 2 samples.

Results

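Postsynaptic density scaffold genes encode the proteins that hold glutamate receptors in place beneath the membrane of excitatory synapses. They were described here by the H3K4me1 peaks at their loci in 1 area of the cerebral cortex of prairie voles (Microtus ochrogaster), the retrosplenial cortex. The 9 genes Dlg4, Dlg2, Dlgap1, Dlgap2, Dlgap3, Shank1, Shank2, Shank3 and Homer2 were chosen by name, with earlier results of these data known. A peak was assigned to a gene when it overlapped the gene body, extended by 5 kb on each side, by at least 1 bp. Gene positions came from RefSeq for assembly MicOch1.0. Of the 9 genes, 6 had a position on a named chromosome and could be analysed, among 13975 placed protein-coding genes in all. Dlgap1, Dlgap2 and Shank1 had no placed position and were not analysed here.

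The tested library was chromatin precipitated with an antibody against H3K4me1, and its control was an input library made without antibody. Both came from dissected retrosplenial cortex of males, with an age of 30 to 40 days, and the series names 8 males. The labels do not say whether their chromatin was pooled. The caller used 37430265 ChIP fragments and 47554684 input fragments, and the 2 libraries gave 1 deposited list of 36238 peaks. Neither library had a replicate, so no test between groups was made and every value describes these libraries. As a check of the tissue label, 4 of 7 placed cortical excitatory neuron markers had a peak at their locus, against 3 of 9 hepatocyte and 3 of 8 striated muscle markers. Over all 13975 placed genes the share was 46.0%, and the exact 95% binomial intervals of the marker shares (18.4 to 90.1%, 7.49 to 70.1% and 8.52 to 75.5%) all include it, so these counts do not tell the tissues apart. Among the excitatory markers, Mef2c and Camk2a had 32 and 7 peaks, while Neurod1, Neurod6 and Fezf2 had 0. The tissue was a mixture of cells, so a mark in few cells and a weak mark in many cells cannot be told apart.

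The postsynaptic density is a layered lattice. PSD-95, the product of Dlg4, and its paralogue PSD-93, the product of Dlg2, bind glutamate receptor subunits through PDZ domains, and their guanylate kinase-like domain binds the SAPAP proteins encoded by the Dlgap genes. SAPAPs bind the Shank proteins, and Shanks bind Homer proteins, which link to metabotropic glutamate receptors and to actin-rich parts of the spine. H3K4me1 is a single methyl group on lysine 4 of histone H3, typical of enhancers and of the flanks of active promoters.

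All 6 placed scaffold genes carried at least 1 peak, and together they held 103. Over all placed genes, 46.0% had a peak in the locus. Among the 8970 with a locus of at least 20 kb, as the 6 scaffold genes have, 58.2% did. That class was not matched in length, with a median locus of 45.6 kb against 89.0 kb for the 6 scaffold genes. All 34 placed genes with a locus of at least 1 Mb, Dlg2 among them, had a peak. Dlg2 held 75 of the 103 peaks and Shank2 held 18. Dlg4, Dlgap3 and Homer2 had 3 each, and Shank3 had 1. The counts were highest in the longest genes, as the Dlg2 gene spans 1687 kb and Shank2 445 kb, while the other 4 span 25.9 to 92.9 kb. The percent of locus covered by peaks, which takes length into account, was 4.38% at Dlg4, 2.42% at Shank2, 2.32% at Dlg2, 1.84% at Dlgap3, 1.79% at Shank3 and 1.09% at Homer2. Its median over the 6 was 2.08%, against 0.620% over placed genes with a locus of at least 20 kb and 0 over all placed genes. Pooled over loci, peaks covered 2.29% of the scaffold loci and 1.50% of all placed gene loci. Without Dlg2 the other 5 genes held 28 peaks and their median coverage was 1.84%.

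**Figure D1:**
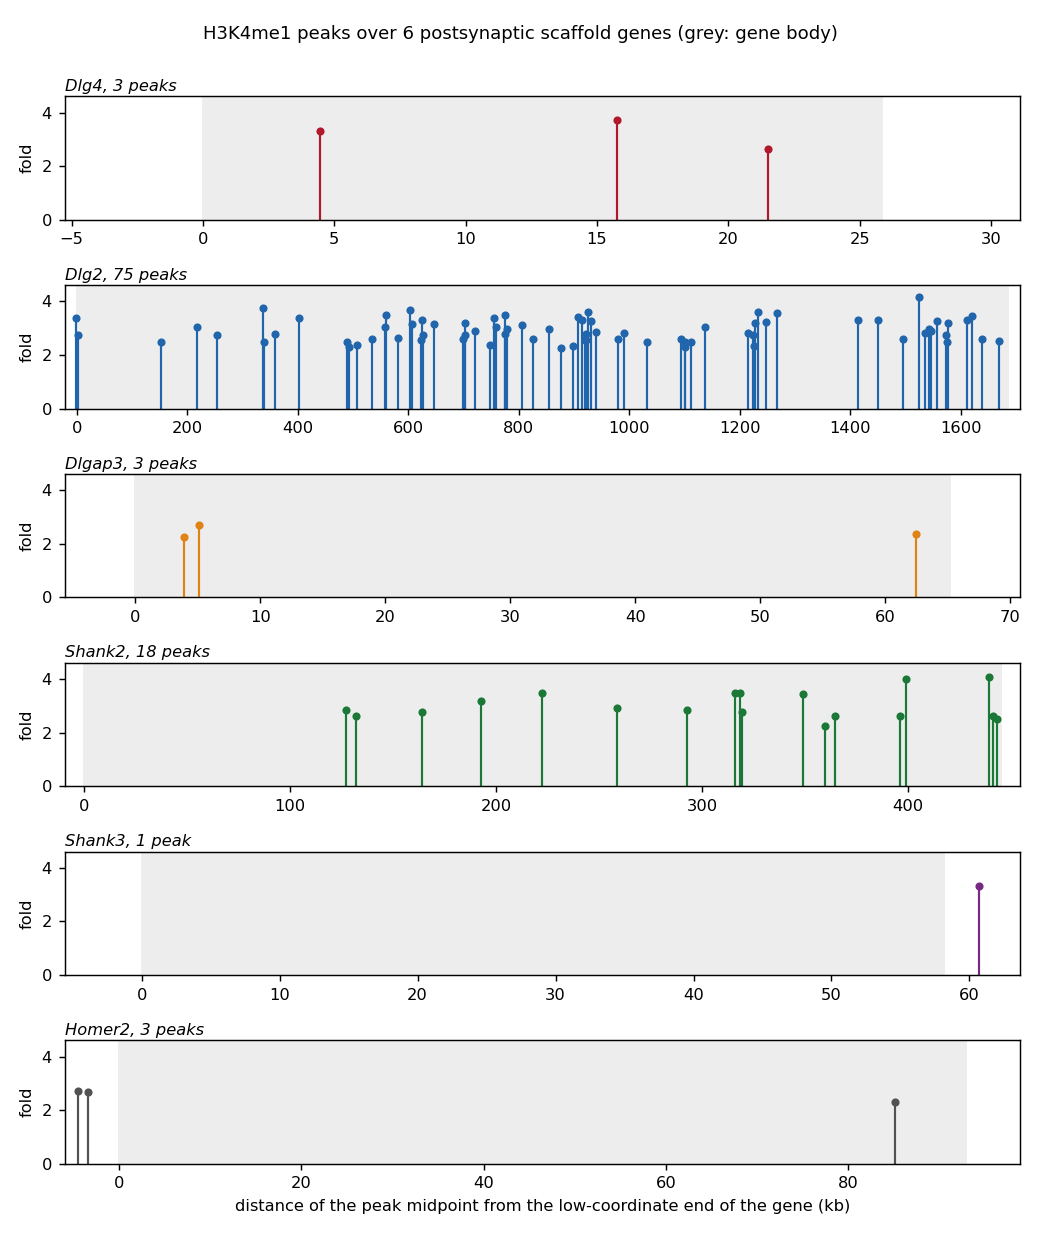
Each panel shows the H3K4me1 peaks of 1 scaffold gene, with the distance of the peak midpoint from the low-coordinate end of the gene (kb) on the horizontal axis and the authors' fold enrichment of ChIP over input on the vertical axis. Grey marks the gene body. Peaks lie along most of Dlg2 and from 127 kb onward in Shank2, while the only Shank3 peak and 2 of the 3 Homer2 peaks lie outside the grey body.

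Of the 103 peaks, 99 had their midpoint inside a gene body and 4 lay in a flank. Within 5 kb of an end of their gene lay 11 of the 103, and 84 lay more than 50 kb from both ends. Those 84 could lie only in Dlg2 or Shank2, since no other scaffold gene spans more than 92.9 kb. The share of locus length at these distances was not computed, so neither count shows a preference for or against gene ends. The strand of the genes was not used here, so positions are given from the end with the lower coordinate, whether that is the 5′ or the 3′ end.

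Dlg4, the gene of PSD-95, was the shortest scaffold gene and the most densely covered. Its 3 peaks lay inside the gene on chromosome 7 and together covered 1572 bp, which is 4.38% of the locus and 6.08% of the gene body. The middle peak (28741379 to 28741905) had 26 ChIP fragments at its summit, with an exact 95% Poisson interval of 17.0 to 38.1 for counting error only. The caller's background for it was 6.23 fragments, the lowest value in the list and not one measured at the locus itself. The fold enrichment of this peak, the authors' value, was 3.73, which 5.22% of all listed peaks exceeded. The peak nearest the low end (28730090 to 28730589) had 23 fragments over 6.23, or 3.32-fold. The peak nearest the high end (28747130 to 28747674) had 21 fragments over 7.31, or 2.65-fold. The intervals of the 3 fragment counts overlap, so the peaks are not ordered by strength beyond counting error. The outer peaks lay 4.46 kb and 4.34 kb inside the gene, and 10.8 kb between the first and the second was without a peak. Of all placed genes, 9.48% had a higher coverage than Dlg4. Acadvl, which encodes a mitochondrial fatty acid dehydrogenase, begins 4.34 kb beyond Dlg4, and no peak lay in its own locus.

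Dlg2, the gene of PSD-93, was the longest scaffold gene and ranked 3 of all placed genes by number of peaks. The genes with more were Opcml, with 85, and Kalrn, with 82, both named after their values were seen. Opcml encodes a cell adhesion molecule, and Kalrn encodes kalirin, a signalling protein of dendritic spines. Per 100 kb of locus Dlg2 had 4.42 peaks. Among the 34 placed genes with a locus of at least 1 Mb, a length class chosen after the data were seen, the median was 1.50 peaks per 100 kb. In that class Dlg2 was second to Opcml (7.42), and Rbfox1, a splicing regulator with a locus of nearly the same length (1699 kb), had 67 peaks, or 3.94 per 100 kb. On chromosome 22, 11.2% of all 668 peaks lay at Dlg2. That share includes the effect of length, as the locus spans 1697 kb and the last peak on the chromosome ends at position 34839370.

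Dlg2 peaks were spread unevenly along the gene. Counted by midpoint in steps of 10% of the gene, the step at the low end held 2 peaks and the next steps 3 and 5. The stretch from 30 to 60% of the gene, picked after the counts were seen, held 36 of 74. The following steps held 6, 7 and 3, and the last step held 12. The longest stretches without a peak were 150 kb long, starting 2.26 kb from the low end, and 145 kb long, starting 1268 kb from that end. In all, 8 gaps between neighbouring peaks exceeded 50 kb, and 11 were of 2 kb or less, around a median gap of 14.1 kb. The third stretch in length without a peak was 85.8 kb long and started 403 kb from the low end. When peaks up to 12.5 kb apart were joined, a distance set with the data known, Dlg2 fell into 39 clusters. Of these, 23 were single peaks and 3 had 5 or more peaks, holding 19 in all. The cluster with most peaks had 9 over 42.4 kb (7614652 to 7657050), with 3928 bp under peaks. The clusters of 5 lay at 7930967 to 7949997, with 3169 bp under peaks over 19.03 kb, and at 8241316 to 8273621, with 2495 bp over 32.3 kb. The second of these begins with the Dlg2 peak of highest fold. Most joined groups at Dlg2 were therefore single short peaks with no neighbour within that distance.

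**Figure D2:**
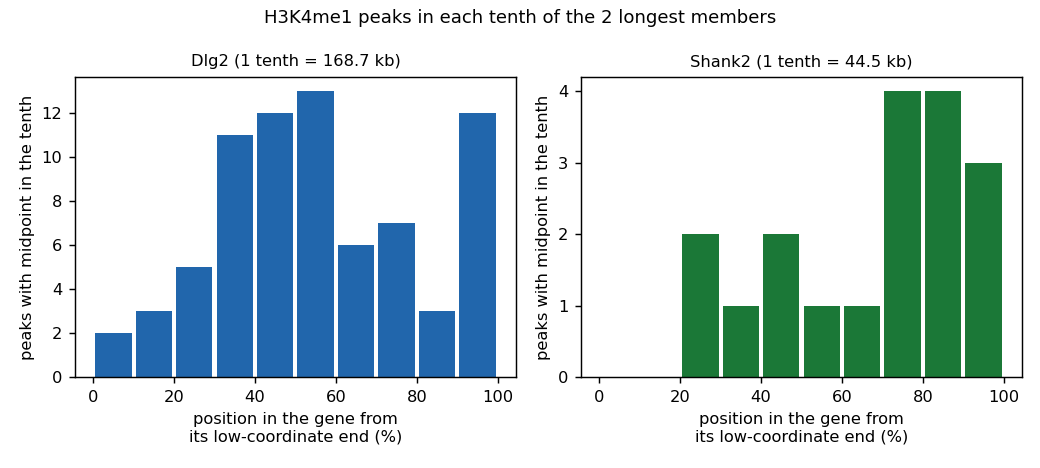
Bars give the number of H3K4me1 peaks with their midpoint in each step of 10% of the gene, from the low-coordinate end (0%) to the high-coordinate end (100%), for Dlg2 (left) and Shank2 (right). Dlg2 has its highest bars from 30 to 60% and in the last step, while Shank2 has none in the first 20% and 11 of 18 from 70% on.

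By their medians, single Dlg2 peaks were close to the whole list. Fold ran between 2.25 and 4.15 with a median of 2.82, ChIP fragments between 17 and 30, and width between 259 and 1018 bp. The median fragment count was 23 and the median width 471 bp. Over the whole list the medians were 2.84-fold, 22 fragments and 433 bp. The peak of highest fold (8241316 to 8242104) had 29 fragments (interval 19.4 to 41.6) over a background of 6.23, or 4.15-fold, and lay 161 kb from the high end. The highest fragment count, 30, was found at 2 peaks. One of them (7490134 to 7491113) lay in the middle of the gene, with 3.49-fold enrichment over a background of 7.87. The other (6714236 to 6714893), with 3.38-fold over 8.17, lay 1.48 kb outside the low end and inside the body of the neighbouring gene Tmem126b, which encodes a mitochondrial assembly factor. It was the only Dlg2 peak outside the gene, and it cannot be assigned to either gene from these data. A further peak (6717595 to 6718302), with 24 fragments and 2.75-fold, lay just inside that end, within 5 kb of Tmem126b as well, so it too cannot be assigned to 1 of the 2 genes. At the high end the nearest peak was 17.5 kb into the gene. The widest peak (6934050 to 6935067) had 21 fragments over 6.23, or 3.04-fold. The weakest by fold (7593003 to 7593264) had 18 fragments over 7.46, or 2.25-fold.

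Dlgap3 encodes SAPAP3, a SAPAP prominent in the striatum and cortex, whose loss in mice causes excessive grooming. Its 3 peaks on chromosome 10 covered 1383 bp and lay near both ends of the 65.2 kb gene, with 56.8 kb between them free of peaks. Near the low end, 2 peaks stood 0.674 kb apart. The first (57347916 to 57348401) had 19 fragments over 7.87, or 2.25-fold, and the second (57349076 to 57349693) had 27 (interval 17.8 to 39.3) over 9.45, or 2.68-fold. The peak near the high end (57406539 to 57406817) had 16 fragments over 6.23, or 2.35-fold, and 16 is the lowest count of any listed peak. All 3 Dlgap3 peaks lay below the median fold of the whole list, 2.84.

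Shank2 had 18 peaks on chromosome 8, all inside the gene, covering 11018 bp. Shank proteins are the deep layer of the scaffold, joining SAPAPs to Homer and to actin regulators. The first 127 kb of Shank2 from the low end held no peak. In the last 30% of the gene, a stretch picked after the counts were seen, lay 11 of the 18. The peak of highest fold among them (36993557 to 36994806) was 1250 bp wide, with 31 fragments (interval 21.1 to 44.0) over 6.85, or 4.08-fold, and lay 6.07 kb from the high end. With 2 smaller peaks, of 18 and 17 fragments, it formed a group of 3 within 5.19 kb at that end of the gene. A further peak (36953999 to 36954589) had 28 fragments over 6.23, or 4.01-fold. The widest (36902964 to 36905411) covered 2448 bp with 31 fragments over 8.26, or 3.45-fold, and only 102 of the 36238 listed peaks were wider. Toward the middle, 3 peaks stood within 3.73 kb (36871015 to 36874742), of which 2 had 24 fragments over 6.23, or 3.46-fold, and 1 had 19, or 2.77-fold. Near the middle of the gene a peak of 859 bp (36777004 to 36777862) also had 24 fragments and 3.46-fold enrichment. Joined as at Dlg2, the 18 peaks fell into 10 groups, 5 of them single peaks and none with more than 3. Gaps between neighbouring Shank2 peaks had a median of 23.2 kb and reached 39.0 kb, with 4 of 17 at 2 kb or less. The lowest fold in Shank2 was 2.25, at a peak of 19 fragments, and the median was 2.83. Shank2 had 3.95 peaks per 100 kb of locus, against 4.42 at Dlg2. The high end of LOC101993520, a protein-coding gene without a symbol, overlaps the low end of Shank2, where no peak was listed.

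Shank3, the Shank gene lost in human Phelan-McDermid syndrome, had no peak in its 58.1 kb body on chromosome 15. Its only peak (21736460 to 21737678) lay 2.54 kb outside the high end of the gene. It was 1219 bp wide, with 23 fragments (interval 14.6 to 34.5) over 6.23, or 3.32-fold, and 15.4% of listed peaks had a higher fold. The protein-coding gene LOC101988361 begins 4.69 kb beyond Shank3, and its own locus held the same peak, so the peak cannot be assigned to either gene. Farther out on that side lie Arsa, the arylsulfatase A gene, and Mapk8ip2, a JNK scaffold gene, and on the low side Acr, the acrosin gene, and Rabl2b, all with no peak in the locus. These 4 neighbours were named after their values were seen. With gene bodies alone, 5 of the 6 scaffold genes had a peak, against 38.1% of all placed genes, and Shank3 was the exception.

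Homer2 encodes a coiled-coil adaptor whose EVH1 domain binds Shanks and group I metabotropic glutamate receptors. It had 3 peaks on chromosome 22, and 1 of them lay inside the gene. That peak (12006417 to 12006873) had 22 fragments over 9.05, or 2.29-fold, and lay 7.87 kb from the high end, with 84.8 kb of the gene before it free of peaks. The other 2 lay in the flank at the low end, 4.42 kb and 3.34 kb outside the gene and 0.741 kb apart. They had 23 fragments over 7.86, or 2.71-fold (11917025 to 11917293), and 28 fragments over 9.84, or 2.68-fold (11918035 to 11918435). The first of them also lay within 5 kb of the neighbouring gene Whamm, 9.17 kb from Homer2, and cannot be assigned to either gene. All 3 Homer2 peaks stood below the median fold of the list. The gene body alone was covered to 0.492%, the lowest value among the scaffold genes that had a peak in the body.

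**Figure D3:**
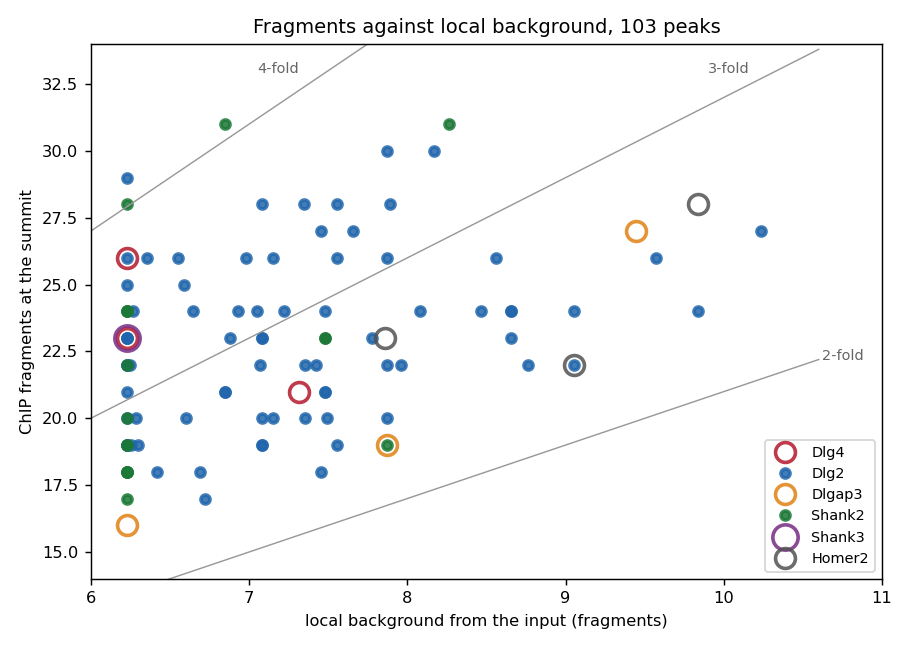
Each point is 1 of the 103 peaks at the scaffold genes, with the local background from the input (fragments) on the horizontal axis and ChIP fragments at the summit on the vertical axis, and lines mark 2-fold, 3-fold and 4-fold enrichment. Points with equal values coincide, rings mark the genes with few peaks, and the column of points at the left is the lowest background, 6.23 fragments.

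Peak strength at the scaffold genes is given beside that of the list as a whole, in the authors' own values. The 103 peaks had a median fold of 2.80 (quartiles 2.59 and 3.31), a median of 23 fragments and a median width of 462 bp. The whole list had 2.84 (quartiles 2.59 and 3.18), 22 fragments and 433 bp. Enrichment of at least 4-fold was found at 3 of the 103, or 2.91% (exact 95% binomial interval 0.605 to 8.28%, counting error only), against 2.88% of the list. Those 3 were the strongest Dlg2 peak and the 2 Shank2 peaks given above, and without Dlg2 the share was 2 of 28, or 7.14% (0.877 to 23.5%). Peaks of at least 1 kb in width numbered 4 of 103, or 3.88%, against 8.28% of the list. They were the 2 wide Shank2 peaks, the Shank3 peak and 1 Dlg2 peak. Dlg2 alone had 1.33% of its 75 peaks at that width, and without it the share was 3 of 28, or 10.7%. These shares rest on few peaks, and their differences from the list were not tested.

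Fold depended on the local background as well as on the ChIP fragments. The lowest background of the list, 6.23 fragments, is a floor shared by 34.5% of all peaks, and it applied at 13 of 18 Shank2 peaks, 12 of 75 Dlg2 peaks, 2 of 3 Dlg4 peaks, 1 of 3 Dlgap3 peaks, the Shank3 peak and none of the 3 Homer2 peaks. Peaks at the floor with equal fragment counts have equal folds, as with 23 fragments at the Shank3 peak and at the first Dlg4 peak. With the same 28 fragments, a Shank2 peak over the floor had 4.01-fold enrichment and a Homer2 peak over 9.84 had 2.68-fold. Backgrounds at the 103 peaks reached 10.23 fragments, and none was over 5 times the floor. Folds at the floor are not taken over a background measured at the locus itself.

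**Figure D4:**
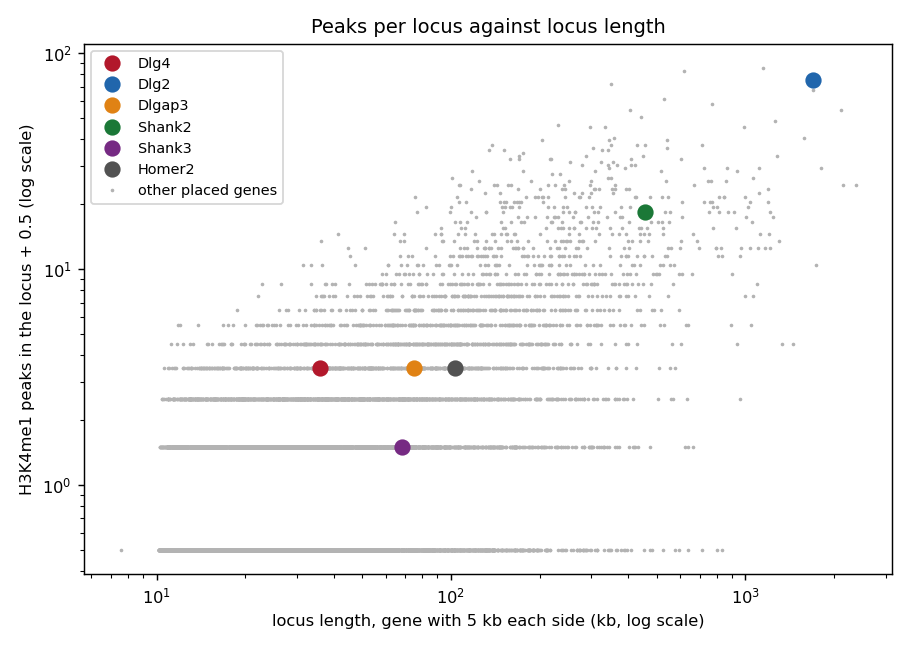
Each point is 1 placed protein-coding gene, with locus length (gene with 5 kb on each side, kb, log scale) on the horizontal axis and the number of H3K4me1 peaks plus 0.5 (log scale) on the vertical axis. The 6 scaffold genes are coloured and all other placed genes are grey. Dlg2, with 75 peaks, lies near the top of the longest loci, while Shank3, with 1 peak, lies at the lowest level above 0.

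Paralogues in the same families, from a list of 24 other scaffold and postsynaptic signalling genes, were covered to different degrees. Dlgap3 had 3 peaks over 1.84% of its locus, against 19 peaks over 8.84% at Dlgap4, which encodes SAPAP4. Dlg4 and Dlg2 were covered to 4.38% and 2.32%, and Dlg1, which encodes the MAGUK protein SAP97, lay between them with 10 peaks over 3.17%. Dlg3, which encodes SAP102, lies on the X and had 1 peak over 0.598%. Of 329 placed X genes, 6.69% had a peak, against 47.0% of 13646 placed genes elsewhere, so the value at Dlg3 stands beside a low level on the whole chromosome. Homer2 had 3 peaks over 1.09% of its locus, and Homer1 had 3 over 0.790%. Dlg5 and Homer3 were not placed.

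Median coverage was 2.08% for the 6 scaffold genes and 2.90% for the 24-gene list, which had 19 placed members, 16 of them with a peak. After Dlgap4 its most covered members were Baiap2, which encodes the actin-bundling adaptor IRSp53, with 10 peaks over 8.70%, and Kalrn, with 82 over 8.32%. Begain, Cyfip1 and the X-linked Iqsec2 had no peak. Without the X the list had a peak at 14 of 16 genes and a median of 3.11%. Ranges of the scaffold genes (1.09 to 4.38%) and of this list (0 to 8.84%) overlap, and no test of the difference was made.

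Glutamate receptor subunits and TARPs, the cargo of the scaffold, were less covered by their median, with 2.08% for the 6 scaffold genes and 0.799% for 9 placed receptor genes, 8 of which had a peak. The ranges overlap (1.09 to 4.38% and 0 to 4.09%) and the difference was not tested. Grin2a, an NMDA receptor subunit bound by PSD-95, had 37 peaks over 4.09% of its locus, and the AMPA receptor subunit gene Gria2 had 12 over 3.93%. Grm5, the metabotropic receptor mGluR5 that Homer binds, had 14 peaks over 1.76%. The X-linked Gria3 had none.

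On the presynaptic side, active zone scaffold genes had a peak at 9 of 9 placed loci and a median coverage of 1.54%. The most covered were Bsn, with 4.84%, Ppfia1, which encodes liprin-alpha-1, with 3.99%, and Ppfia4 with 2.91%. Inhibitory postsynaptic scaffold genes had only 3 placed members. Of these, Dag1, the dystroglycan gene, had 2 peaks over 3.45%, Gphn, which encodes gephyrin, had 4 over 0.455%, and Nlgn2 had none. These lists differ in locus length, with a median of 89.0 kb for the 6 scaffold genes, 336 kb for the receptor list, 226 kb for the presynaptic list and 79.5 kb for the inhibitory list.

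**Figure D5:**
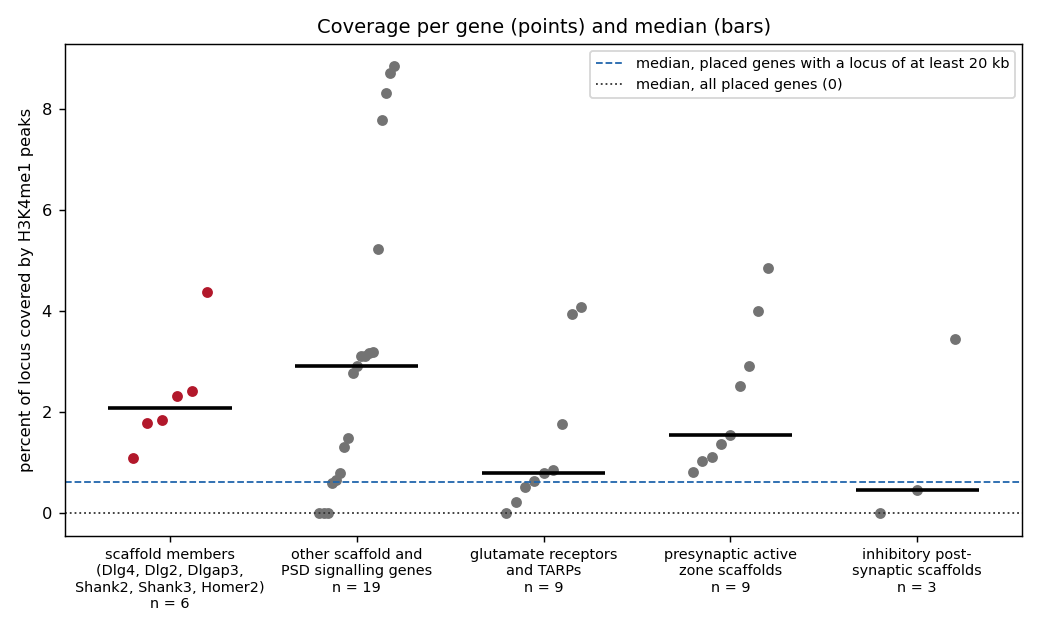
Points give the percent of each locus covered by H3K4me1 peaks, by gene list, with bars at each list's median. The dashed line marks the median of placed genes with a locus of at least 20 kb (0.620%) and the dotted line that of all placed genes (0). All 6 scaffold genes lie above the dashed line, and each other list has members near or below it except the presynaptic one, whose lowest is 0.822%.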

How the data were processed

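In paired-end mode, the authors called peaks by MACS version 2.0.10.20131216 at a q cutoff of 0.05, with 1 duplicate fragment kept per position and the larger library scaled to the smaller, per the file headers. The header's paths name the aligner Stampy, whereas BWA 0.7.12 stands in the submitters' processing notes, so which of them aligned these reads was not settled. The deposited signal counts the ChIP fragments covering the summit. The deposited fold is a ratio, with 1 added to the pileup and 1 to the local background from the input. The deposited −log10 p-value and −log10 q-value come from the caller. The background was computed back from pileup and fold, and values within 0.001 of the lowest were taken as the floor.

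The build of the peaks is not stated in the header or labels. On chromosomes 7, 8, 10, 15 and 22, which hold the scaffold genes, 55 to 237 peaks per chromosome lay 1 to 2.5 kb from a MicOch1.0 gene end, on each more than after any shift of the peaks by 20 to 200 kb. Genes on unplaced sequences, chromosome 14 and chromosome 6 below 20 Mb were left out, which left 13975 of 20077 protein-coding genes. Peak coordinates are as deposited, counted from 1.

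Counting used Python 3.11.15 and SciPy 1.17.1 and was tested on simulated data. Of 96 listed genes, 93 had their symbol in the gene table. The text names all 9 scaffold genes, the 3 most covered genes of each comparison list with up to 2 of those without a peak, and genes overlapping a scaffold locus. Named after their values were seen were paralogues, tissue markers, long genes with many peaks, other neighbours such as Whamm, and further genes without a peak. Genes and lists were chosen with earlier results of these data known. Alternatives varied flank, overlap, peak threshold and background genes.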

Additional observations from a re-analysis of the deposited data

Results flagged for a closer look

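Of the 36238 listed peaks, 27022 lay on the sequences used for the gene comparisons. A further 7851 lay on unplaced sequences and entered no gene comparison, although the caller listed them above the input. The rest were in neither group. Dlgap1, Dlgap2 and Shank1 have no placed position in the gene table, so any peaks at these 3 genes were not analysed here.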

How the results depend on the processing

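The 4 results were genes with a peak, number of peaks, median coverage and peaks of at least 4-fold. Of 33 alternative settings for them, 30 stayed within 1.5 times the reported value and 3 moved. Some of the 30 could not move. A background of loci of at least 20 kb changes only the comparison genes, not the scaffold values. Leaving out peaks of high local background removed no scaffold peak. The count of 30 therefore does not measure how stable the results are. Keeping peaks at or above the median −log10 q left 51 scaffold peaks, or 49.5%, against 50.2% of the list. Keeping the 25% of peaks of highest fold left 33, or 32.0%, against 25.4% of the list, with a median coverage of 1.11%. Smaller peak lists must lower such counts, and the differences in share were not tested. With the 25% of highest fold, Dlgap3 and Homer2 had no peak and 4 of 6 genes kept one, against 22.0% of all placed genes. That count lies at the limit of 1.5 times and was counted as staying. Flanks of 50 kb gave 112 peaks and a median of 1.63%, against 0.679% over all placed genes, of which 75.0% then had a peak. Leaving out Dlg2, an alternative chosen after seeing the data, left 28 peaks. No paired analysis was possible because each group had 1 library. A weak site could be missed at this depth, since no peak under 16 fragments was listed, so a gene body without a peak is not shown to lack the mark.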

Other observations

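The surroundings of the scaffold genes were looked at after their values were seen. Of 9 placed genes within 50 kb of Dlg4, 4 had a larger share of their locus covered than the 4.38% of Dlg4 and 5 a smaller one, with no peak at 4 of them, among them Acadvl and Dvl2, the nearest on the high side. The 4 more covered genes lie farther out on that side and share 3 peaks. A peak of 947 bp (28777818 to 28778764) is the only one at Gabarap, an autophagy and receptor trafficking gene covered to 7.44%, and at Phf23, covered to 6.71%. It is also 1 of the 3 at Ctdnep1, a nuclear envelope phosphatase gene covered to 10.9%, and the other 2 of these are the peaks of Elp5, covered to 5.87%. The nearest peak outside the Dlg4 locus (28717419 to 28717717) lay 8.31 kb beyond its low end, with 20 fragments and 2.90-fold enrichment. Beyond the low end of Dlg2, the same 3 peaks lay at the loci of Crebzf and Tmem126a, over 6.32% and 6.36%. Within 50 kb of Shank3 and of Homer2 no peak was listed other than those at their own loci.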
